A study of Mus musculus with 239 samples.

Results

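Mki67-positive and Mki67-negative cells were compared inside 2 sets of single mouse mammary cells, the luminal gate and the pregnant basal group. Cells were chosen by 1 value: a cell with Mki67 at 1 FPKM or more was called Mki67-positive, and a cell below 1 FPKM was called Mki67-negative. FPKM is the number of sequenced fragments scaled by transcript length and by library size. The comparison held 205 of the 239 cells of the series, with 32 Mki67-positive and 173 Mki67-negative cells. The luminal gate held 103 cells, 54 from virgin and 49 from pregnant mice, and the pregnant basal group held 12 Mki67-positive and 90 Mki67-negative cells. The mice were FVB females 3 to 4 months old, either virgin or pregnant (labelled day 12, in the protocol 12.5), with no transgene or agent named in the labels. Blood and endothelial cells were depleted before the sort, which used CD24 and CD29 to separate luminal (high CD24, low CD29) from basal cells (intermediate CD24, high CD29). Each cell was captured on a Fluidigm C1 chip and its RNA was amplified with the SMARTer kit. Mouse, chip and day are not among the labels, which makes every group 1 sample; cells are not replicates, and differences are given with no test. Because Mki67 chose the cells, Mki67 itself is left out and genes of the same program are given as a description of the choice.

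Mki67 encodes Ki-67, a nuclear protein that coats chromosomes in mitosis and is broken down in resting cells, which is why it serves as a marker of proliferation. A dividing cell first copies its DNA in S phase, with MCM helicases and nucleotide-making enzymes, and then separates its chromosomes with cyclin B, its kinase CDK1, kinetochore proteins and ubiquitin ligases that end mitosis. In the pregnant mammary gland both layers proliferate: luminal cells give rise to alveoli that make milk, and basal cells form the contractile sheet that later ejects it.

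Many mitotic genes share a short promoter element, the cell cycle genes homology region (CHR), and many replication genes carry an E2F motif. The promoter windows of Mki67, of 2 mitotic genes and of a replication gene that differed between the classes are shown, since these elements separate the mitosis from the replication genes compared here. They come from RefSeq promoters on GRCm38.p6, read 5′ to 3′ on the gene's strand upstream of its start. Capitals mark the CHR motif TTTGAA, or its reverse complement in Ube2c, and an E2F motif in Uhrf1. Top2a (CHR) and Mcm3 (E2F) were looked up in the same way and gave no window to show. The windows lie at chr7:135716442-135716525 (minus strand), chr2:164769870-164769928 (plus), chr9:70421686-70421751 (minus) and chr17:56304098-56304165 (plus), in the order shown.
Mki67: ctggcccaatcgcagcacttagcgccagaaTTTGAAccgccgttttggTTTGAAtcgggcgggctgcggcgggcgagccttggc
Ube2c: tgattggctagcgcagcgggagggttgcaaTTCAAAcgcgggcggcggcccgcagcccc
Ccnb2: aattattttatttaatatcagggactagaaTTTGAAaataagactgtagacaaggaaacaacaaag
Uhrf1: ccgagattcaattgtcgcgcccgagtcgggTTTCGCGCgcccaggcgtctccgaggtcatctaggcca

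Mki67-positive cells made up 10 of 54 virgin luminal cells (18.5%, exact Clopper-Pearson 95% interval 9.25 to 31.4%) and 10 of 49 pregnant luminal cells (20.4%, 10.2 to 34.3%). In pregnant basal cells they were 12, beside 90 negative cells (11.8%, 6.23 to 19.6%). The intervals overlap and cover only the counting of cells. Mki67 in the positive cells had a median of 1.74 FPKM in virgin luminal (1.01 to 17.8), 5.07 in pregnant luminal (1.3 to 97.1) and 13.3 in pregnant basal cells (1.56 to 147). The highest Mki67-negative cell was at 0.62, 0.714 and 0.944 FPKM in these groups, and Mki67 was exactly 0 in 36, 32 and 72 cells. At 10 FPKM or more there were 1 virgin luminal, 3 pregnant luminal and 6 pregnant basal cells. Most luminal cells counted as positive therefore sat within 1 to 10 FPKM, 16 of 20 in the gate.

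**Figure D1:**
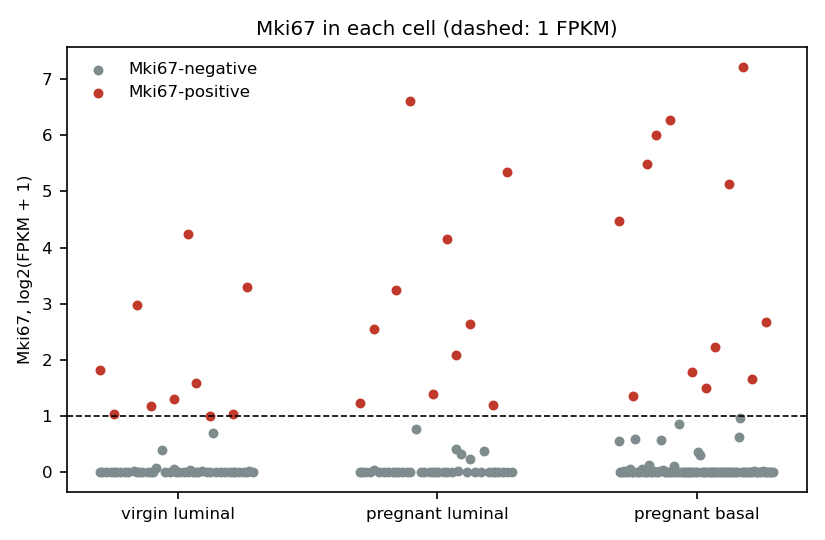
Mki67 level of each cell on a log2(FPKM + 1) axis in the 3 groups, with Mki67-positive cells in red, Mki67-negative cells in grey and the limit of 1 FPKM dashed. Virgin luminal positive cells gather near the line, and 6 of 12 pregnant basal positive cells lie at 10 FPKM or more.

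Mki67-positive cells yielded more genes at 1 FPKM or more, with a median of 4002 against 3589 genes in the luminal gate and 3371.5 against 2677.5 in pregnant basal cells. Depth did not move the same way: in units of 1000000 fragments, the median estimated from the low values was 8.52 against 8.65 in the luminal gate and 8.21 against 9.23 in pregnant basal cells. The difference used below is the mean over Mki67-positive cells minus the mean over Mki67-negative cells of log2(FPKM + 1), and a gene was counted where the difference was at least 1 and the higher class had the gene at 1 FPKM or more in no fewer than 25% of its cells. Across all genes that met this filter the median difference was 0.25 in the luminal gate and 0.48 in pregnant basal cells, so a single gene or list is read against these values. For positive cells at 10 FPKM or more it was 0.62 in the gate and 0.69 in basal cells. For those from 1 to below 10 FPKM it was 0.17 and 0.43. Values given below for these levels are read against these medians. To give the same comparison at like gene number, each positive cell was also set beside the 2 negative cells of its group nearest in gene number. This lowered the median difference to 0.09 in the luminal gate (20 against 40 cells, median 4002 genes in both) and to 0.19 in pregnant basal cells (12 against 24 cells, 3371.5 against 3276 genes). That alternative is called the comparison at like gene number below. Whether the larger number of genes contributed to a difference was not tested beyond it.

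Several cells stood apart from their label. Pregnant basal cell 5 (Mki67 at 21.2 FPKM) carried endothelial genes, with Pecam1 at 650, Emcn at 1000 and Cdh5 at 157 FPKM. It had Cd74 at 869 FPKM, a contractile score of 1.00 against a median of 7.67 for the positive cells, and Krt14, a basal keratin, at 0.304 FPKM. A score is the mean log2(FPKM + 1) over the genes of a list. Summed over the 10 endothelial markers, the positive basal cells ranged from 0 to 2170 FPKM with a median of 0, and 1 cell reached 10 FPKM; the negative basal cells ranged from 0 to 1120 FPKM, and 5 of 90 reached 10. Pregnant luminal cell 2 had Acta2, smooth muscle actin, at 5340 and Tagln at 5890 FPKM, and its contractile score of 8.31 was above its luminal identity score of 2.94. Pregnant luminal cell 16 had an endothelial score of 2.54 with Emcn at 156 FPKM. Immune markers also moved with the basal classes: summed over 8 markers, 6 of 12 positive and 14 of 90 negative cells reached 10 FPKM, with a range of 0 to 1750 and 0 to 308 FPKM, and 5 of the 8 markers were at 0 in all positive cells. Cd74, the invariant chain of antigen presentation, was 2.42 higher in positive basal cells and lay at 153, 80.8, 13.4, 38.2 and 273 FPKM in cells 49, 47, 60, 83 and 63. The part of these RNAs in the basal results was not tested. Values without cell 5 or cell 2 are given beside several results below.

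The mitosis genes separated a minority of the luminal Mki67-positive cells from all other cells of their group. Of the 30 genes of the mitosis and G2 list, 12 passed the filter in the luminal gate and 8 of these were higher by at least 1, with none lower. For all genes of the gate, 6.19% of 6563 were higher and 0.609% were lower by this rule. Over all 30 members the median difference was 0.76. The mitosis score was 1.10 ± 1.51 (SD over 20 cells) against 0.33 ± 0.18 (83 cells), but the median positive cell was at 0.470, and 4 of 20 reached 1 against 0 of 83 negative cells (a count of 0 allows up to 3.61%). Measured within each group, 2 of 10 virgin luminal positive cells (cells 5 and 45) and 3 of 10 pregnant luminal positive cells (cells 20, 38 and 45) were above the highest negative cell of their group. The remaining positive cells overlapped the negative ones. Every luminal cell with a mitosis score of 1 or more was thus Mki67-positive. Most luminal cells with Mki67 at 1 FPKM or more did not reach that score.

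Single genes showed the same split. Top2a, which untangles DNA and is a marker given for this comparison, was at 1 FPKM or more in 4 of 20 positive and 2 of 83 negative luminal cells, below the filter. Its level reached 109 FPKM in virgin luminal cell 45 and 75.4 FPKM in pregnant luminal cell 45, and its median was 0 in both classes. Ube2c, the E2 enzyme of the anaphase-promoting complex, was found in 18 of 20 positive cells and in 65 of 83 negative cells. Its medians of 4.36 and 2.94 FPKM lay close together, while 2 pregnant luminal cells stood at 575 and 647 FPKM. Ube2c at low level therefore did not mark the positive class. Ccnb2, a B cyclin, was found in 6 of 20 positive and 4 of 83 negative cells (difference 1.58). Cdk1, its kinase, was found in 5 of 20 and 3 of 83 cells (1.45), and Ccnb1 in 5 of 20 and 4 of 83 cells (1.24). These differences were 1.47, 1.41 and 1.12 at like gene number.

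Pregnant basal cells carried the mitotic genes more widely. Of the 30 mitosis genes, 25 passed the filter and 24 were higher by at least 1, with none lower, against 22.2% higher and 1.32% lower among all 5620 genes that passed in this group. The median over all 30 members was 2.08. The mitosis score was 2.34 ± 1.88 (12 cells) against 0.30 ± 0.31 (90 cells), with a median of 2.89 against 0.231, and 7 of 12 positive cells (cells 9, 21, 60, 63, 66, 83 and 97) were above the highest negative cell at 2.12. Without cell 5, the score difference was 2.2 in place of 2.04, and at like gene number it was 1.84. Among cells of middle gene number it was 0.59 in basal cells (5 against 45) and 0.12 in the luminal gate, where it was 0.76 over all cells. That setting kept 1 of the 7 basal and 0 of the 4 luminal positive cells with a mitosis score of 1 or more. Cells 9 and 66 were among the 7 although their Mki67 was only 3.71 and 5.35 FPKM. Cells 26, 47 and 80, with Mki67 at 2.14, 2.44 and 1.82 FPKM, had mitosis scores of 0.168, 0.24 and 0.24 that lay among the negative cells.

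Stmn1 (chr4:134468320-134473843 on GRCm38, plus strand), which destabilises microtubules, had the largest difference of all genes in pregnant basal cells. It ranged from 0 to 1250 FPKM in positive cells with a median of 580, and from 0 to 881 FPKM in negative cells with a median of 0.102. The difference was 4.84, and 3.49 at like gene number. Ccnb2 was found in 9 of 12 positive and 5 of 90 negative basal cells, with medians of 30.3 and 0 FPKM (difference 4.05). Pttg1, securin, was found in 10 of 12 and 12 of 90 cells (3.88). Cenpa, the histone of the centromere, was found in 9 of 12 and 3 of 90 cells (3.46). Cenpe, a kinetochore motor, was found in 10 of 12 and 2 of 90 cells (3.21). Cks1b and Cks2, small subunits that bind cyclin-dependent kinases, differed by 3.61 and 3.32. Top2a differed by 3.01 and Ube2c by 3.13. Every one of these genes reached higher levels in the positive than in the negative class apart from Cks2, whose highest cell was a negative one at 449 FPKM against 432. In luminal cells Stmn1 differed by 0.78 (1.02 without pregnant luminal cell 2), with medians of 31.9 and 17.6 FPKM.

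**Figure D2:**
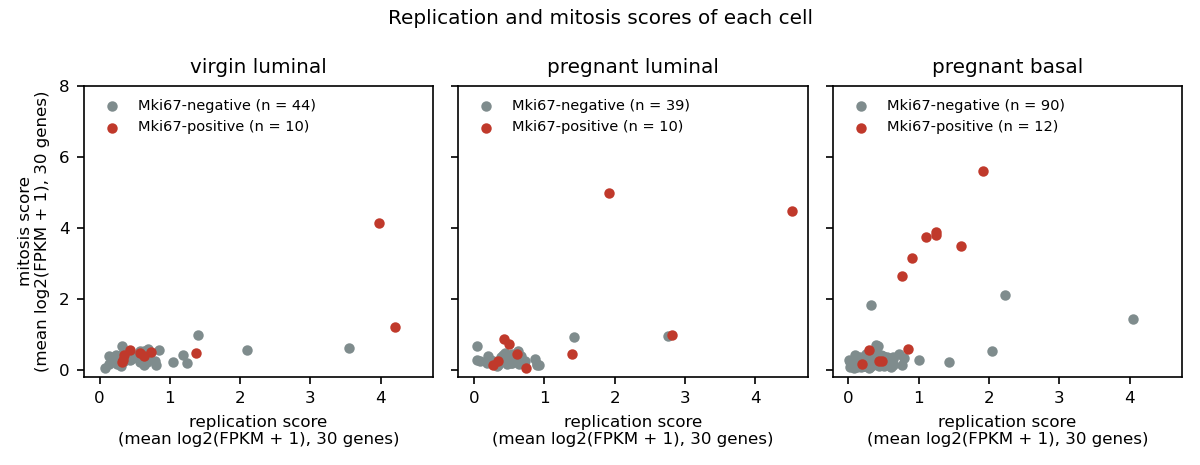
Mitosis score against replication score of each cell, as mean log2(FPKM + 1) over 30 genes each, with Mki67-positive cells in red and Mki67-negative cells in grey. In pregnant basal cells 7 of 12 red points lie above all grey points on the mitosis axis but none on the replication axis, and a few grey points have replication scores above 2.

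In pregnant basal cells replication genes split the classes less than mitosis genes, and the highest replication score was in a Mki67-negative cell. In the luminal gate the 2 score differences were alike, 0.72 for replication and 0.76 for mitosis. They were 0.64 and 0.50 in virgin luminal cells, and 0.81 and 1.02 in pregnant luminal cells. In the gate 3 positive cells lay above the highest negative cell in replication score. In the luminal gate, 18 of 30 replication genes passed the filter, 7 were higher and none was lower. Of all genes there, 6.19% were higher and 0.609% lower. The median difference of all 30 was 0.63, and the score difference was 0.62 at like gene number and 0.10 among cells of middle gene number. The score was 1.32 ± 1.41 against 0.60 ± 0.53, and 4 of 20 positive and 3 of 83 negative cells reached a score of 2. Mcm3, a helicase subunit, was found in 7 of 20 and 4 of 83 luminal cells (difference 1.58). Uhrf1, which carries DNA methylation through replication, was found in 9 of 20 and 8 of 83 cells (1.84). In pregnant luminal cells alone Uhrf1 was found in 6 of 10 and 3 of 39 cells (2.89), and in virgin luminal cells in 3 of 10 and 5 of 44 (0.81).
In pregnant basal cells 12 of 30 replication genes passed, 5 were higher and none was lower, where 22.2% and 1.32% of all genes were. The score difference of 0.48 was 0.23 at like gene number, beside 0.19 for all genes, and 0.04 among cells of middle gene number. The replication score was 0.92 ± 0.53 against 0.43 ± 0.52, its highest value among positive cells was 1.91, and 0 of 12 positive but 3 of 90 negative cells reached 2. Pregnant basal cell 1, with Mki67 at 0.465 FPKM, had the highest replication score of this group at 4.05 and Uhrf1 at 194 FPKM. Mcm3 was found in 1 of 12 positive and 5 of 90 negative basal cells (difference 0.04), while Uhrf1 was found in 7 of 12 and 9 of 90 (2.2).

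Chromatin proteins differed in both sets. The list of 21 chromatin and histone genes had 18 members past the filter in the luminal gate, 7 higher and none lower. It had 17 in pregnant basal cells, 12 higher and none lower. Of all genes, 6.19% were higher and 0.609% lower in the gate, and 22.2% and 1.32% in basal cells. The score was 3.38 ± 1.14 against 2.60 ± 0.65 in luminal and 3.74 ± 1.21 against 2.40 ± 0.70 in basal cells. Among cells of middle gene number the differences of 0.78 and 1.34 were 0.25 and 0.24. Hmgb3, a DNA-bending protein, was found in 15 of 20 and 36 of 83 luminal cells, with medians of 14.9 and 0.247 FPKM (difference 2.02). Its difference was 1.75 in luminal cells with Mki67 below 10 FPKM and 1.97 at like gene number. H2afz, a histone variant, was found in every positive cell of both sets, and differed by 0.86 in luminal and 2.81 in basal cells. Its lowest positive basal cell was at 109 FPKM, and 78 of 90 negative basal cells reached 1 FPKM. Hmgb2 differed by 1.07 and 2.45, Hmgn2 by 1.43 and 2.31, and Smc2, a condensin subunit, by 1.38 and 2.44. Hdac1, a histone deacetylase, differed by 4.15 in basal and 0.77 in luminal cells.

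The controls of G1 gave few differences. None of the 4 of 16 genes of the G1 list that passed in the luminal gate was higher or lower by 1, and in pregnant basal cells 2 of 6 were higher and 1 was lower. Ccnd2, a D cyclin, was found in 9 of 12 positive and 53 of 90 negative basal cells (difference 1.68), and Cdk4, its kinase, in 8 of 12 and 40 of 90 (1.64). Ccnd1 was 0.47 lower in basal and 0.49 lower in luminal positive cells. Myc (chr15:61985391-61990374, plus strand), a growth factor-induced transcription factor, was the member that was lower: it was found in 5 of 12 positive and 65 of 90 negative basal cells, with medians of 0.355 and 19.4 FPKM (difference -2.04). This was -2.19 at like gene number, and with Mki67 below 10 FPKM only it was -2.18. The classes overlapped, with positive basal cells from 0 to 87.4 and negative ones from 0 to 366 FPKM. In luminal cells Myc differed by -0.26. Of 16 inhibitors and p53 targets, 11 passed in basal cells and 3 were higher, Cdkn2d (2.04), Trp53 (1.78) and Btg2 (1.39), a share near the 22.2% of all genes there. None of 9 was in the luminal gate, where the share of all genes was 6.19%. Trp53 was at -0.15 among the basal cells with Mki67 below 10 FPKM, below its value over all positive cells.

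Luminal identity genes lay close together in the 2 luminal classes. Over the gate all 14 of them passed the filter and none was higher or lower by 1. The score was 5.95 ± 1.07 in positive and 5.90 ± 1.15 in negative cells. In virgin luminal cells none of the 14 was higher and 1 was lower, where 12.7% and 2.48% of all genes were. In pregnant luminal cells 1 was higher and 1 lower, where 14.9% and 2.64% were. The score differed by 0.06 in either group alone. Krt18, a luminal keratin, had medians of 1450 and 1410 FPKM (difference 0.06). Krt8 differed by 0.49 and Krt19 by 0.70, and all 3 keratins were at 1 FPKM or more in every positive cell. At like gene number the identity score difference was -0.33, and without pregnant luminal cell 2 it was 0.20. The 4 luminal cells with Mki67 at 10 FPKM or more, 1 virgin and 3 pregnant, were 0.88 higher than the negative cells in this score. The median difference of all genes for these cells was 0.62.

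The progenitor list differed by -0.39 between the luminal classes, less than its spread over cells, and Cd14 and Ltf were lower in positive cells. Of 12 luminal progenitor and alveolar genes, 10 passed the filter, none was higher and 2 were lower, where 0.609% of all genes were lower. In virgin luminal cells 3 of 11 were lower, where 2.48% of all genes were, and the score differed by -0.71. In pregnant luminal cells 1 of 10 was lower, where 2.64% of all genes were, and the score differed by -0.16. Cd14, the lipopolysaccharide co-receptor expressed by luminal progenitors, had the largest difference downward of all genes in the gate. It was found in 4 of 10 positive and 34 of 44 negative virgin luminal cells, with medians of 0.286 and 74.9 FPKM (difference -2.58). In pregnant luminal cells it was found in 7 of 10 and 28 of 39, with medians of 16.6 and 99.6 FPKM (-1.86). Cd14 differed by -2.23 over the gate, by -2.94 at like gene number, and by -2.06 without pregnant luminal cell 2. The classes overlapped, and 1 virgin luminal positive cell, cell 39, reached 912 FPKM. Ltf, lactotransferrin, differed by -1.24 over the gate, but by 0.89 in the 4 cells with Mki67 at 10 FPKM or more, 3 of them from pregnant mice. Elf5, the alveolar transcription factor, differed by -0.22 and Kit, a receptor of luminal progenitors, by 0.05. The score of the list was 4.79 ± 1.92 against 5.18 ± 1.97, a difference of -0.39. It was -0.79 for the 16 cells with Mki67 below 10 FPKM, 1.21 for the 4 cells at 10 FPKM or more, and 0.44 among cells of middle gene number (7 against 44 cells, between the 25th and 75th percentile). Within pregnant luminal cells it was -0.48 for 7 cells below 10 FPKM and 0.59 for 3 cells at 10 FPKM or more. In virgin luminal cells it was -0.95 for 9 cells below 10 FPKM, and 1.39 for the 1 cell at 10 FPKM or more. Leaving out the Esr1-positive virgin luminal cells (13 against 57 cells) gave -0.53 for the list and -2.70 for Cd14. Another setting asked positive cells to have Top2a or Ube2c at 1 FPKM or more too, and negative cells to have neither. There (18 against 18 cells) the list was at -1.20 and Cd14 at -3.37, pooled values that mix virgin and pregnant cells.

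Hormone-sensing genes were higher in the 10 virgin luminal positive cells, where the list has its expression. In virgin luminal cells, 11 of 12 hormone-sensing genes passed the filter, 4 were higher by at least 1 and none was lower, where 12.7% of all 6618 genes were higher and 2.48% lower. The score was 3.46 ± 1.48 in positive and 2.68 ± 1.65 in negative cells, and the 2 classes overlapped over nearly their whole range. Esr1, the oestrogen receptor, was found in 7 of 10 positive and 26 of 44 negative virgin luminal cells, with medians of 23.1 and 2.6 FPKM (difference 1.13). Foxa1, its pioneer factor, was found in 8 of 10 and 16 of 44 (1.39). Ly6a, which encodes Sca-1, differed by 2.00 and Tbx3 by 1.09. Pgr, the progesterone receptor, differed by 0.23 and Prlr, the prolactin receptor, by 0.79. Virgin luminal cells 5 and 45 had mitosis scores above every negative cell of their group. Their Esr1 was at 108 and 28.4 FPKM and their Pgr at 6.38 and 4.1 FPKM. A replication score of 2 or more was also reached by 2 of 44 negative virgin luminal cells, whose Esr1 and Pgr are not given here. Esr1 was below 1 FPKM in all 49 pregnant luminal cells, and the list score there was 0.31 against 0.36. At like gene number the difference of the list over the whole gate was 0.13 in place of 0.30, and it was -0.74 among cells of middle gene number. Within virgin luminal cells it was 0.65 for the 9 cells with Mki67 below 10 FPKM, and the 1 cell at 10 FPKM or more lay 1.96 above the negative mean.

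Over all cells of the gate, the milk protein scores of the luminal classes differed by less than their spread over cells. Of 10 milk protein genes, 8 passed the filter in the gate, none was higher and 1, Lalba, was lower. The score was 6.33 ± 2.55 in positive and 6.66 ± 2.84 in negative cells. In virgin luminal cells 3 of the 8 genes that passed were lower, where 2.48% of all genes were, and the score was 4.30 ± 1.45 against 4.88 ± 2.39. In pregnant luminal cells, where 14.9% of all 6315 genes were higher and 2.64% lower, the milk protein score was 8.35 ± 1.57 against 8.67 ± 1.79. Csn2, beta-casein, ranged from 3320 to 57200 FPKM (median 25100) in pregnant positive cells and from 583 to 64800 FPKM (median 27600) in pregnant negative cells, a difference of 0.36 in mean log2 level. Pregnant luminal cells 38 and 45, with the highest Mki67 and full mitosis scores, held Csn2 at 17600 and 25200 FPKM and Wap, whey acidic protein, at 285 and 259 FPKM. Cells with a mitotic program and abundant casein RNA thus occurred together in these 2 cells. Csn1s1 differed by -0.04 and Csn3 by 0.10 in pregnant luminal cells, and Glycam1 by -0.79.
Lalba (chr15:98480400-98482721, minus strand), a subunit of lactose synthase, was found in 6 of 10 positive and 32 of 39 negative pregnant luminal cells, with medians of 23.2 and 63.5 FPKM (difference -1.87). In virgin luminal cells the medians were 4.76 and 6.04 FPKM (-1.03), so the direction was alike in both groups and the classes overlapped in both. Wap differed by -1.81 in virgin luminal cells, with medians of 2.47 and 14.3 FPKM, and by -0.41 in pregnant luminal cells. Muc15, a membrane mucin, differed by -1.51 and -0.66. Milk fat genes followed with a score of 2.98 ± 1.70 against 3.06 ± 1.73, and Thrsp and Fabp3, which serve fatty acid synthesis and transport, differed by -1.71 and -1.48 in virgin but by -0.27 and -0.17 in pregnant luminal cells. At like gene number the milk protein and milk fat differences over the gate were -0.73 and -0.49. Over the gate these lists were at -0.75 and -0.41 for cells with Mki67 below 10 FPKM, at 1.35 and 1.19 for the 4 cells at 10 FPKM or more, and at 0.59 and 0.75 among cells of middle gene number. Of those 4 cells 3 came from pregnant mice, while the negative class held both, so the pooled values mix the groups. Within pregnant luminal cells the milk protein difference was -0.35 below 10 FPKM (7 cells) and -0.22 at 10 FPKM or more (3 cells), and the milk fat difference was -0.08 and 0.29. In virgin luminal cells the milk protein difference was -0.84 below 10 FPKM (9 cells), and the 1 cell at 10 FPKM or more was 1.82 above the negative mean. Leaving out the Esr1-positive virgin luminal cells gave a milk protein difference of -0.31 over the gate and -1.49 for Lalba, whose difference over the gate was -1.40 with them. The largest milk differences came with Top2a or Ube2c added to the rule as above (18 against 18 cells). There milk protein was at -1.79, milk fat at -0.85, Lalba at -3.26 and Csn2 at -1.71. These pooled values also mix virgin and pregnant cells.

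**Figure D3:**
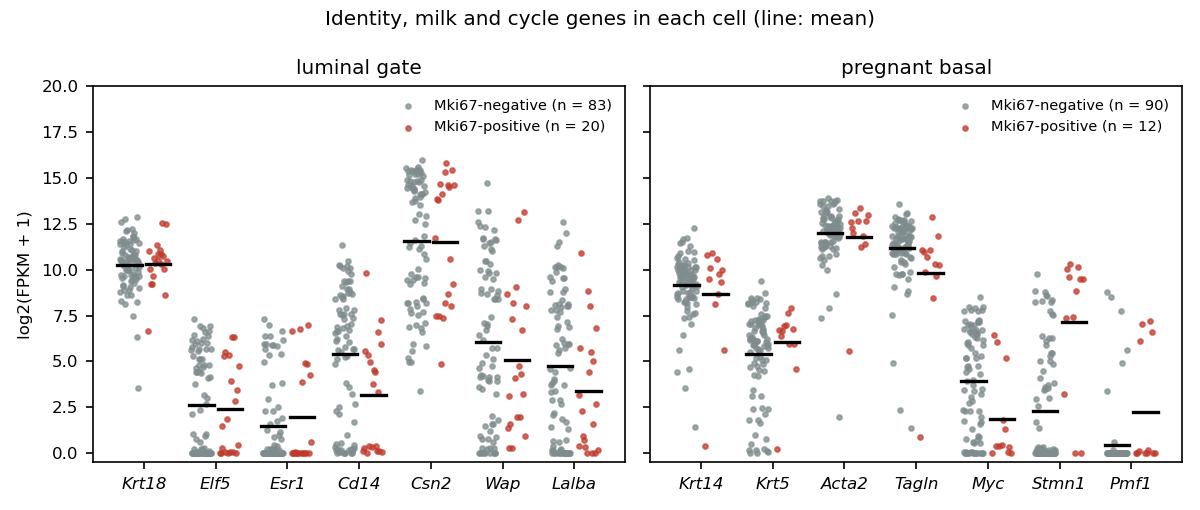
Level of 7 identity, milk or cycle genes in each cell of the luminal gate (left) and of the pregnant basal group (right) on a log2(FPKM + 1) axis, with Mki67-positive cells in red, Mki67-negative cells in grey and class means as lines. In the luminal gate the class means of Krt18 lie 0.06 apart and Cd14 and Lalba are lower in the positive class. Stmn1 is 4.84 higher in positive basal cells, with overlap in every gene.

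Over all positive cells, basal identity genes differed by less than 1 in pregnant basal cells. Of 12 basal identity genes, 11 passed and none was higher or lower by 1, and the score was 3.66 ± 1.22 against 3.72 ± 0.88. Krt5 had a difference of 0.65, Krt14 medians of 793 and 707 FPKM (-0.51), and Krt17 medians of 256 and 358 FPKM (-0.82). Cell 5 moved these values: without it Krt5 was at 1.18, past the limit of 1, Krt14 turned to 0.25 and Krt17 was at -0.25. Leaving out a different positive cell moved Krt17 as far, to -0.246. In the 6 cells with Mki67 below 10 FPKM, which do not include cell 5, Krt17 was at -2.18. It was at 0.54 in the 6 cells at 10 FPKM or more. At like gene number Krt17 was at -1.77, Krt14 at -1.03 and Krt5 at 0.09. Without cell 5 the score difference was 0.23 in place of -0.06, and at like gene number it was -0.60. Of 12 contractile genes, 11 passed, none was higher and 3 were lower, where 22.2% of all genes were higher and 1.32% lower. Tagln, transgelin, had medians of 1470 and 2890 FPKM (difference -1.32, and -0.505 without cell 5). Mylk, myosin light chain kinase, differed by -1.03, and by -0.42 without cell 5. Tagln and Mylk therefore did not reach the limit of 1 without that cell. Oxtr, the oxytocin receptor, differed by -1.26, but by 0.12 in the 6 cells with Mki67 below 10 FPKM. Acta2 had medians of 5580 and 4790 FPKM (-0.19, and 0.38 without cell 5). The contractile score was 7.02 ± 1.97 against 7.32 ± 1.34, a difference of -0.30 that became 0.25 without cell 5, so this 1 cell set its direction. At like gene number, with cell 5 included, it was -0.60. It was 0.40 for the 6 cells with Mki67 below 10 FPKM and -1.0 for the 6 at 10 FPKM or more.

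Luminal identity and milk protein scores of both basal classes lay below those of the luminal gate. Of 14 luminal identity genes, 7 passed the filter in pregnant basal cells. Of these 3 were higher and 1 lower, where 22.2% and 1.32% of all genes were. Among the higher were Gata3, a luminal transcription factor (1.39), and Krt19 (1.27). The score was 2.07 ± 0.77 against 1.79 ± 0.67, a difference of 0.28, beside 0.48 for all genes. It was 0.47 without cell 5 and 0.02 at like gene number. Krt8 differed by 0.98, and by 1.65 without cell 5. Elf5 and Kit were at 0 FPKM in all 12 positive cells, which allows up to 25% of cells. Both were near 0 in the negative cells too (differences -0.005 and -0.001). Mfge8, a milk fat globule protein that basal cells also make here, was found in 12 of 12 positive and 79 of 90 negative cells, with medians of 258 and 122 FPKM (2.2). Of the milk protein genes Csn3 was higher (1.45) and Csn1s1 lower (-1.12) in positive cells, Lalba was 0 in all 12, and the score was 0.94 ± 0.84 against 1.02 ± 0.95.

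Scores of mitochondrial and secretory genes were higher in pregnant basal positive cells, in which 22.2% of all genes were higher by 1. All 12 genes of the tricarboxylic acid cycle passed the filter, 6 were higher and none lower. The score was 4.01 ± 1.52 against 2.95 ± 1.13. Fh1, fumarase, was found in 9 of 12 and 33 of 90 cells (difference 2.39), Idh3a in 8 of 12 and 44 of 90 (1.91), Cs, citrate synthase, in 8 of 12 and 41 of 90 (1.82), and Mdh1 in 10 of 12 and 72 of 90 (1.59). Idh3g, another subunit of isocitrate dehydrogenase outside that list, had medians of 292 and 0.494 FPKM (4.03). Ndufs8, a subunit of respiratory complex I, was found in 12 of 12 and 51 of 90 cells, with medians of 130 and 6.33 FPKM (3.72). Its positive cells ranged from 12.6 to 300 FPKM, inside the negative range of 0 to 398.
Of 16 oxidative phosphorylation genes, 5 were higher and 1 was lower, Uqcrc1 (2.26), Ndufv1 (1.70) and Atp5b (1.42) among the higher ones, a share near that of all genes, and the score was 6.25 ± 1.34 against 5.43 ± 1.24. Of 16 secretory and unfolded protein response genes, 7 were higher and none lower. Ssr2, of the translocon, differed by 2.66, Hsp90b1, an endoplasmic reticulum chaperone, by 1.69, and Sec61a1 by 1.66, and the score was 4.87 ± 0.91 against 3.98 ± 1.03. At like gene number the tricarboxylic acid cycle difference of 1.06 was 0.67, oxidative phosphorylation 0.64 in place of 0.82, and the secretory list 0.55 in place of 0.90. Among basal cells of middle gene number (5 against 45 cells) they were -0.02, -0.21 and -0.13. There the 3 list differences were near 0, while Ndufs8 (3.81) and Idh3g (4.28) were as far apart as among all cells.

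Over the pooled luminal gate most metabolic lists moved little. Oxidative phosphorylation differed by 0.33 with none of 16 genes higher or lower by 1, the tricarboxylic acid cycle by 0.31 with 1 of 12 higher, glycolysis by 0.36 with 1 of 14 higher (Pgam1, 1.44), and the secretory list by 0.42 with none of the 15 that passed. These lie near the 0.25 of all genes. They were -0.08, -0.11, 0.20 and 0.09 at like gene number. Of the 14 cholesterol genes, 1 was higher, Hmgcs1, the synthase that commits acetyl units to sterols. It was found in 8 of 10 positive and 10 of 39 negative pregnant luminal cells, with medians of 24.3 and 0 FPKM (difference 2.81), but differed by 0.02 in virgin luminal cells; the difference between the groups was not tested. Nucleotide synthesis had 2 of 17 genes higher, Gmps (1.15) and Gart (1.01), and one-carbon metabolism 1 of 12, Shmt1 (1.36). The one-carbon and cholesterol scores differed by 0.46 and 0.49 over the gate, and by 0.36 and 0.24 at like gene number. Of the genes that passed in pregnant luminal cells, 4 of 9 one-carbon and 4 of 11 cholesterol genes were higher. The nucleotide and secretory lists each had 4 of 15 higher there, where 14.9% of all genes were. The one-carbon and cholesterol scores differed by 0.76 and 0.66 in that group, and by 0.15 and 0.31 in virgin luminal cells. In pregnant basal cells Psat1, of serine synthesis, was higher by 1.86, with 4 of 12 genes of the one-carbon list higher and none lower.

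**Figure D4:**
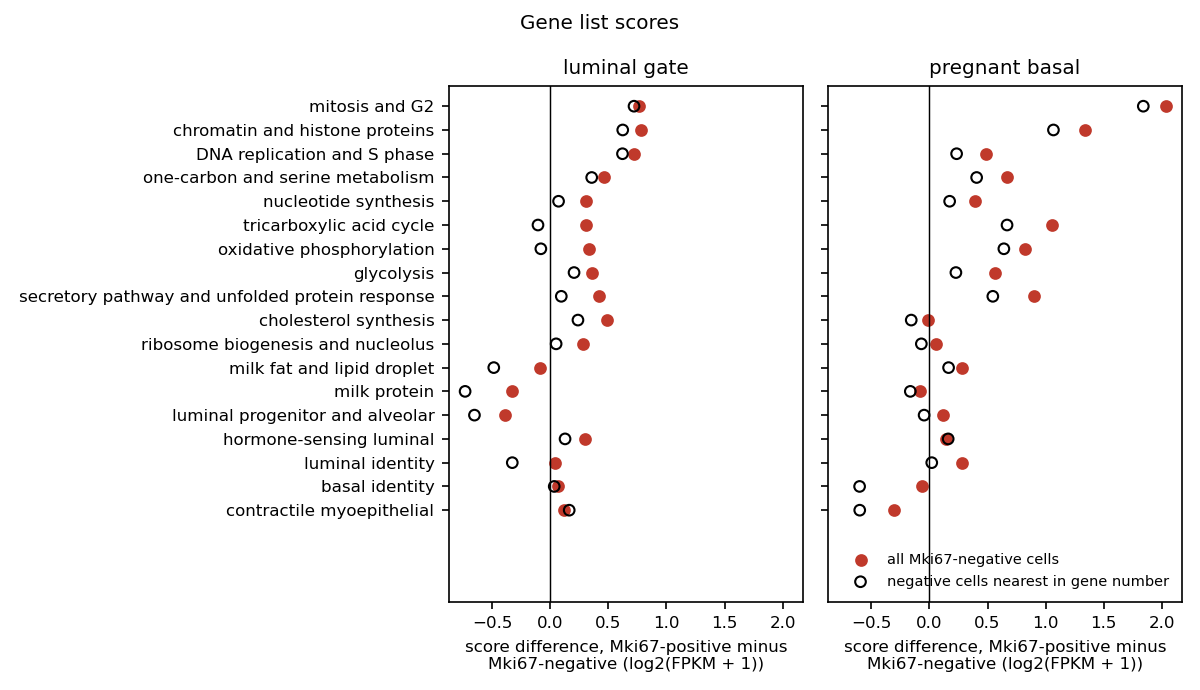
Difference in list score, Mki67-positive minus Mki67-negative cells on the log2(FPKM + 1) scale, for 18 gene lists in the luminal gate (left) and pregnant basal cells (right). Red points use every Mki67-negative cell and open points the negative cells nearest in gene number; the mitosis and chromatin lists stay to the right in both, the metabolic lists move towards 0 in the luminal gate, and milk and progenitor lists lie left of 0 there.

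All genes that passed the filter, in a list or not, were ranked by size. The luminal gate was led by Pmf1 (2.58) and 2700094K13Rik (2.57), followed by Rbbp7, a histone chaperone (2.13), and among the leading 15 were Hmgb3 and Kpna2, a nuclear import factor (1.84). Downward, after Cd14, came Anxa6, a membrane-binding annexin (-1.70), and Gsta4, a glutathione transferase (-1.60), with Fads1, a fatty acid desaturase (-1.41), also among the leading 15. Fads1 was found in 7 of 10 positive and 35 of 39 negative pregnant luminal cells, with medians of 4.21 and 39.2 FPKM. In pregnant basal cells the downward list was led by Zfp36l2, which targets AU-rich messages for decay, found in 10 of 12 and 79 of 90 cells with medians of 3.74 and 79.7 FPKM (-2.34). Slco2a1, a prostaglandin transporter, followed with medians of 0.0779 and 9.94 FPKM (-2.18), then Myc and Adamts1, a secreted protease (-1.92), with Ccl2, a chemokine (-1.58), among the leading 15. In all, 406 genes were higher and 40 lower in the luminal gate, and 1248 higher and 74 lower in pregnant basal cells. Of the higher genes 120 were in both. They were 29.6% of the luminal set, where 22.2% of all basal genes were higher. They were 9.62% of the basal set, where 6.19% of all luminal genes were higher. No lower gene was shared, where only 0.609% and 1.32% of all genes were lower, so this is not read as a result. The counts at like gene number were 258 higher and 153 lower in the gate and 911 and 396 in basal cells, so the excess of higher genes shrank.

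Virgin luminal, pregnant luminal and pregnant basal cells have no cell in common. Taken singly, 12.7%, 14.9% and 22.2% of the genes that passed in these groups were higher by 1. The shares lower by 1 were 2.48%, 2.64% and 1.32%. With shares this small, a lack of shared lower genes is not read as a result. Among the 4148 genes that passed the filter in all 3, 39 were higher by at least 1 in each (0.94%) and 0 were lower in each (0.0%). 2700094K13Rik, which encodes selenoprotein H, led them with differences of 2.10, 3.07 and 2.49 in the order of the groups above. It was found in 8 of 10, 8 of 10 and 8 of 12 positive cells and in 17 of 44, 12 of 39 and 14 of 90 negative cells. Pmf1, a kinetochore subunit, differed by 2.39, 2.75 and 1.82, and was found in 6 of 10, 7 of 10 and 4 of 12 positive cells against 9 of 44, 9 of 39 and 6 of 90 negative cells. Cks2 differed by 1.33, 1.65 and 3.32, and Smc2 by 1.23, 1.53 and 2.44. Others had no place in the cycle lists: Lsm3, of the splicing machinery (2.00, 1.52 and 2.57), Cyb5a, cytochrome b5 (1.54, 2.19 and 2.33), Acaa2, a mitochondrial thiolase (1.41, 1.35 and 2.65), Kars, the lysyl-tRNA synthetase (1.39, 1.13 and 3.05), and Anp32b (1.21, 2.39 and 2.36). In luminal cells with Mki67 below 10 FPKM, 2700094K13Rik was still 2.13 and Pmf1 1.92 higher, whereas the mitosis score differed by 0.16; in basal cells below 10 FPKM Pmf1 was at -0.42. Without pregnant luminal cell 2 and pregnant basal cell 5 the count of 39 became 63.

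The promoter elements shown above were counted in all promoters of 300 bases, from 250 before to 50 after the start, on both strands. TTTGAA was present for 17 of the 25 mitosis genes with a promoter in the table (68%), 3 of 25 replication genes (12.0%), 8 of 28 genes higher in all 3 groups (28.6%) and 20.2% of all 27025 gene symbols. An E2F motif (TTTCCCGC, TTTGGCGC or TTTCGCGC) was present for 1 mitosis gene (4.0%), 10 replication genes (40.0%), 2 of the 28 genes (7.14%) and 2.12% of all. The CCAAT box, CCAAT, which can lie near either, was present for 76%, 60%, 60.7% and 41.1%. The genes higher in all 3 groups thus lay nearer to all promoters than to the mitosis list for TTTGAA. A match is a stretch of letters, not a bound site.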

How the data were processed

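Single mammary cells were profiled by RNA-seq. The authors deposited 1 table of FPKM values (239 cells, 18850 genes); no header names the unit, which follows from Cufflinks and from the values. The submitters' processing notes name Cufflinks 2.2.1, TopHat2 2.0.13, Trimmomatic 0.35 and the mm10 build. The annotation and the treatment of multi-mapped reads were not given in the sources used here. Capture sites were inspected for doublets, per the labels' protocols, and no doublet caller was run. Relative depth was read from low values: 94.9% of 431476 values below 8 steps were whole multiples of a gene's smallest step within 0.1 of a step, and the scale came from 1071 single-transcript genes. In units of 1000000 fragments, cells ranged from 1.15 to 32.8 (median 8.68). PCR copies cannot be told from molecules, so intervals and floors (3 cells) cover counting error only, and a value of 0 may be a gene left without an estimate.

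Groups came from the labels; 0 columns lacked a sample. Levels were log2(FPKM + 1). The classes, lists and comparisons were chosen with earlier results of these data known, and 37 lists (469 genes) were used. Genes named were the 15 largest differences each way per comparison, up to 4 per list, the 15 leading genes shared by the 3 groups and a set of marker genes. Pseudocounts of 0.1 and 10, other filters, rescaling each cell to 1000000, stricter Mki67 limits, gene number and leaving out each positive cell were tried; the comparison at like gene number, the 1 to 10 FPKM comparison and leaving out cells 2 and 5 were chosen after seeing the data. Known shifts were added to genes of real Mki67-negative luminal cells to check the arithmetic of the difference. The choice of classes, the filter and the effect of gene number were not tested in this way.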

Additional observations from a re-analysis of the deposited data

Results flagged for a closer look

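List scores were checked for single cells far from the rest in the 2 classes of 10 Mki67-positive cells, by the gap to the nearest other cell over the whole range (Dixon's limit for 10 cells). Chance flags about 1 in 20 such checks, and 17 of 74 were past the limit. Pregnant luminal cell 2 stood apart in its contractile score (8.31), basal identity score (4.97), basement membrane score (4.78), fibroblast score (1.22), progenitor and alveolar score (2.89, the lowest) and milk fat score (1.74, the lowest). Pregnant luminal cell 16 stood apart in its endothelial (2.54), adipocyte (1.81) and immune score (0.14). Pregnant luminal cell 23 was highest in the pericyte score (0.58) and pregnant luminal cell 19 in the erythroid score (0.094). Virgin luminal cell 45 was highest in the mitosis score (4.13) and in the score of cycle inhibitors and p53 targets (3.01). Among virgin luminal cells, cell 31 was highest in basal identity (1.23), cell 9 in the endothelial score (0.32) and cell 1 in the erythroid score (0.037), and cell 2 was lowest in glycolysis (2.69).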

How the results depend on the processing

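No paired analysis was possible because each sample is 1 cell and no test was run. With a pseudocount of 0.1, genes higher and lower by 1 numbered 1442 and 178 in the luminal gate and 2475 and 222 in pregnant basal cells; with 10, they numbered 13 and 3, and 238 and 8. The stricter filter of 50% of cells left 24 lower luminal and 46 lower basal genes. Rescaling each cell gave 891 higher and 82 lower luminal and 227 lower basal genes, and without milk protein genes 886, 89 and 226. At Mki67 of 10 FPKM or more, shares were 1.85% (virgin luminal), 6.12% (pregnant luminal) and 5.88% (pregnant basal), counts were 2806 and 172 luminal and 2024 and 142 basal, and luminal differences were 3.17 (mitosis), 2.15 (replication), 2.28 (chromatin), 0.96 (glycolysis) and 0.89 for Ltf, which turned. For Mki67 of 1 to below 10 FPKM only, 104 luminal and 340 basal genes were lower, and in basal cells Smc2 (-0.28), Trp53 (-0.15), Pmf1 (-0.42) and Oxtr (0.12) turned. With Top2a or Ube2c added to the rule, 1321 luminal genes were higher and 155 lower, and 123 basal genes were lower. Without Esr1-positive virgin luminal cells, 615 were higher and 130 lower. At like gene number 258 luminal genes were higher and 153 lower, and 396 basal genes were lower.

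Among cells of middle gene number, 886 luminal genes were higher and 507 lower, and 661 basal genes were lower. There Ube2c (-0.08), Cdk1 (-0.14), Ccnb1 (-0.10) and Hmgb2 (-0.64) turned in the gate. In basal cells the tricarboxylic acid cycle (-0.015) and secretory (-0.13) lists turned, as did Top2a (-0.059), Cdk1 (-0.022), Ccnb1 (-0.0089), Cdk4 (-0.16), Trp53 (-1.56), Pmf1 (-0.61), Krt19 (-0.82), Csn3 (-0.36), Psat1 (-0.082), Mdh1 (-0.080), Ndufv1 (-1.01) and Sec61a1 (-0.52). This setting leaves fewer positive cells (7 and 5); the cause was not tested. The 39 genes higher in all 3 groups were 202 and 0 with pseudocounts of 0.1 and 10, 112 and 107 after rescaling, 194 with Top2a or Ube2c, and 63 without pregnant luminal cell 2 and pregnant basal cell 5. Leaving out each positive cell in turn gave 357 to 500 higher and 33 to 55 lower luminal genes, and 1144 to 1486 higher and 61 to 109 lower basal genes. A transcript missed in a cell reads as 0, so low genes are limited by capture and depth.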

Other observations

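Virgin basal cells were outside the comparison. In that group 3 of 34 cells reached Mki67 at 1 FPKM or more (8.82%, exact Clopper-Pearson 95% interval 1.86 to 23.7%), at 1.15, 1.7 and 108 FPKM. The cell at 108 FPKM, cell 15, had Top2a at 0, Stmn1 at 0 and Ccnb2 at 37.1 FPKM and a mitosis score of 0.32, and its depth was 3.77 in units of 1000000 fragments. The other two had mitosis scores of 0.17 and 0.26.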
